A study of Rattus norvegicus with 6 samples.

Results

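The microRNAs (miRNAs) miR-21 and miR-210, both known from ischemic and hypoxic tissue, were followed in exosomes from rat serum. The members are the mature arms rno-miR-21-5p, rno-miR-21-3p, rno-miR-210-3p and rno-miR-210-5p (the species prefix is left out below), chosen by name as 4 of the 763 miRNA rows of the deposited table. Small RNA was sequenced from serum exosomes of male Sprague-Dawley rats, 9 to 10 weeks old and of 250 to 280 g body weight, in 3 control and 3 IPC libraries. IPC stands for ischemic preconditioning, here 3 cycles of closing the left anterior descending coronary artery for 5 min and reopening it for 5 min, under pentobarbital anesthesia (50 mg/kg), with blood then taken from the left ventricle. Control blood was drawn likewise, under the same pentobarbital dose, from rats without the artery procedure, and the labels describe no sham operation. The labels do not say whether the libraries of a group came from separate rats or from pools, so every p-value measures the spread between these libraries, which may be technical. No vesicle protein was measured, so the label exosome could not be checked against its markers. In such samples more vesicles of one origin and more copies of a miRNA per vesicle cannot be told apart.

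A miRNA hairpin is cut into a duplex of a 5p and a 3p arm, and usually one arm is kept by the Argonaute protein and pairs through its seed, bases 2 to 8, with target mRNAs. miR-21-5p is the kept arm of miR-21, an abundant miRNA of many cell types that represses Pdcd4 and that is raised in injured and fibrotic heart tissue. miR-210-3p is the kept arm of miR-210, a direct transcriptional target of the hypoxia-inducible factor HIF, and it represses the iron-sulfur cluster scaffold Iscu and the ephrin Efna3. miR-21-3p and miR-210-5p are the arms that are mostly degraded.

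The mature sequences are shown because the members differ in seed and in base composition, which is set beside their values further on. They are RefSeq sequences of build GRCr8, written 5′ to 3′ with the seed in capitals.
miR-21-5p: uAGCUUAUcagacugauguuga
miR-21-3p: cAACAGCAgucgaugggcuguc
miR-210-3p: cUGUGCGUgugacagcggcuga
miR-210-5p: aGCCACUGcccacagcacacug
All 4 are 22 bases long. Where counts of different arms are set side by side below, no correction for their sequence was made. No other mature miRNA among the 693 in the RefSeq table had the same seed as any of the 4. Rows of the deposited table without a RefSeq sequence were not compared, so whether any of them shares a seed is not known here. In miR-21-5p 36.4% of the bases are G or C, against 59.1% in miR-21-3p and 63.6% in each arm of miR-210.

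The hairpins show where the arms lie, with both arms of each hairpin in capitals.
Mir21: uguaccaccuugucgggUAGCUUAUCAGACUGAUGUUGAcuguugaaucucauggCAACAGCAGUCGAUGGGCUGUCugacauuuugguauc
Mir210: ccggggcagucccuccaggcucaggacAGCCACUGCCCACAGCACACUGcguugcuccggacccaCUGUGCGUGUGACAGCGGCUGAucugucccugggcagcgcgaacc
Mir21 lies at chr10:71902600-71902691 on the minus strand of GRCr8, outside other annotated genes, between the protein-coding genes Tubd1 and Vmp1. Mir210 lies at chr1:205755923-205756032, also on the minus strand, within the span of the long noncoding RNA LOC102553043. The deposited table gives no coordinates, and the submitters' processing notes name another build, rn6. The annotation also holds Mir3574 on the strand opposite Mir210. Its mature sequence is the exact reverse complement of miR-210-3p and is shown because reads of the pair differ only in strand.
miR-3574: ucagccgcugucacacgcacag
miR-3574 had 0 counts in all 6 libraries, so no count of this locus was assigned to the opposite strand in the table.

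Depth ran from 111048 to 152343 miRNA counts in the control libraries and from 319285 to 762927 in the IPC libraries, and no control library was as deep as any IPC library. Levels are given as the deposited normalised values, which are counts moved to a common library size of 265919, and as CPM, the count divided by all miRNA counts of the library and scaled up. Of the 4 members, miR-21-5p and miR-210-3p passed the abundance filter and were tested among 226 miRNAs. miR-21-3p and miR-210-5p did not pass it and are given as counts. The libraries did not fall apart cleanly by group. Over the 226 tested miRNAs, control replicate 2 had a Spearman correlation of 0.93 with IPC replicate 3 and of 0.77 and 0.69 with control replicates 1 and 3.

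miR-21-5p had the most counts of the 4 arms in every library. Control replicates 1, 2 and 3 had normalised values of 976, 3172 and 487. IPC replicates 1, 2 and 3 had values of 1422, 1633 and 3394. Control replicate 2 lay above IPC replicates 1 and 2, so the groups overlapped, while control replicates 1 and 3 lay below every IPC library. These values rested on 213 to 2563 counts per control library and 3815 to 4580 per IPC library. By CPM the order was led by control replicate 2 at 16824 (exact Poisson 95% interval 16179 to 17488, counting error only) and IPC replicate 3 at 14345 (13932 to 14766). IPC replicates 2 and 1 followed at 5892 and 5000 CPM, then control replicates 1 and 3 at 2873 and 1642. By count miR-21-5p ranked 14th to 43rd among the detected miRNAs of the 6 libraries, highest in control replicate 2 and lowest in control replicate 3.

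The mean normalised value of miR-21-5p was 1545 ± 1430 in controls and 2150 ± 1083 after IPC (SD, n = 3 each). In limma on log2(value + 1), fitted over all 226 miRNAs, its log2 fold change was 0.79 (SE 0.77, 95% interval -0.90 to 2.49, unadjusted p = 0.324, adjusted p = 0.689). The difference was about as large as its SE, and the interval covers both a lower and a higher level. Neither tested member passed an adjusted p of 0.05, and over all 226 miRNAs 0 (0%) did, while an unadjusted p below 0.05 was found for 8.85% in the higher and 1.77% in the lower direction. The groups did not overlap for 13.7% of the tested miRNAs and for neither tested member. Of all 226 log2 fold changes 62.8% were above 0, with a median of 0.38, and miR-21-5p ranked 79th from the highest. Its log2 fold change was 1.53 without control replicate 2 (unadjusted p = 0.0478, adjusted p = 0.137, limma), 0.18 without control replicate 3 and 0.41 without IPC replicate 3. As a share of counts, which uses no scaling factor, it was at 7113 ± 8433 CPM in controls and 8412 ± 5157 after IPC (exact permutation test, two-sided, p = 0.7, where 0.1 is the smallest that 3 against 3 libraries allow). That difference turned negative without control replicate 1, control replicate 3 or IPC replicate 3 (-821, -1436 and -1667 CPM). Counts summed over each group and scaled gave an IPC to control ratio of 0.973, below 1 where the mean log2 difference was above 0. Control replicate 2 supplied 2563 of the 3095 control counts in that sum.

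miR-210-3p ran the other way across the libraries. Control replicates 1, 2 and 3 had normalised values of 668, 104 and 375. The values were 251, 192 and 97.0 in IPC replicates 1, 2 and 3. Control replicates 1 and 3 lay above every IPC library and control replicate 2 lay below IPC replicates 1 and 2, so the groups overlapped here too. The counts behind these values were 219, 84 and 164 in controls and 673, 459 and 131 after IPC. By CPM, control replicates 1 and 3 were highest at 1972 (1720 to 2251) and 1264 (1078 to 1473), and control replicate 2 and IPC replicate 3 were lowest at 551 (440 to 683) and 410 (343 to 487). miR-210-3p ranked 40th by count in control replicate 1 and 105th in IPC replicate 3.

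The mean normalised value of miR-210-3p was 382 ± 282 in controls and 180 ± 77.8 after IPC (SD, n = 3 each). Its log2 fold change was -0.82 (SE 0.81, 95% interval -2.61 to 0.96, limma unadjusted p = 0.333, adjusted p = 0.689). The hypoxia-induced arm was thus not shown to rise or fall, and its interval too covers both directions. Its log2 fold change was -1.57 without control replicate 2 (unadjusted p = 0.0404, adjusted p = 0.118, limma), -0.24 without control replicate 1 and -0.43 without IPC replicate 3. Without control replicate 2, 16.8% of the 226 miRNAs passed the adjusted threshold and 35% had an unadjusted p below 0.05, both members among the latter alone. By share of counts it was at 1263 ± 710 CPM in controls and 662 ± 238 after IPC (exact permutation test, two-sided, p = 0.3). Neither direction turned under the other scalings, although median-of-ratios and upper-quartile scaling shifted the median of all 226 log2 fold changes by -0.25 and -0.27.

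**Figure D1:**
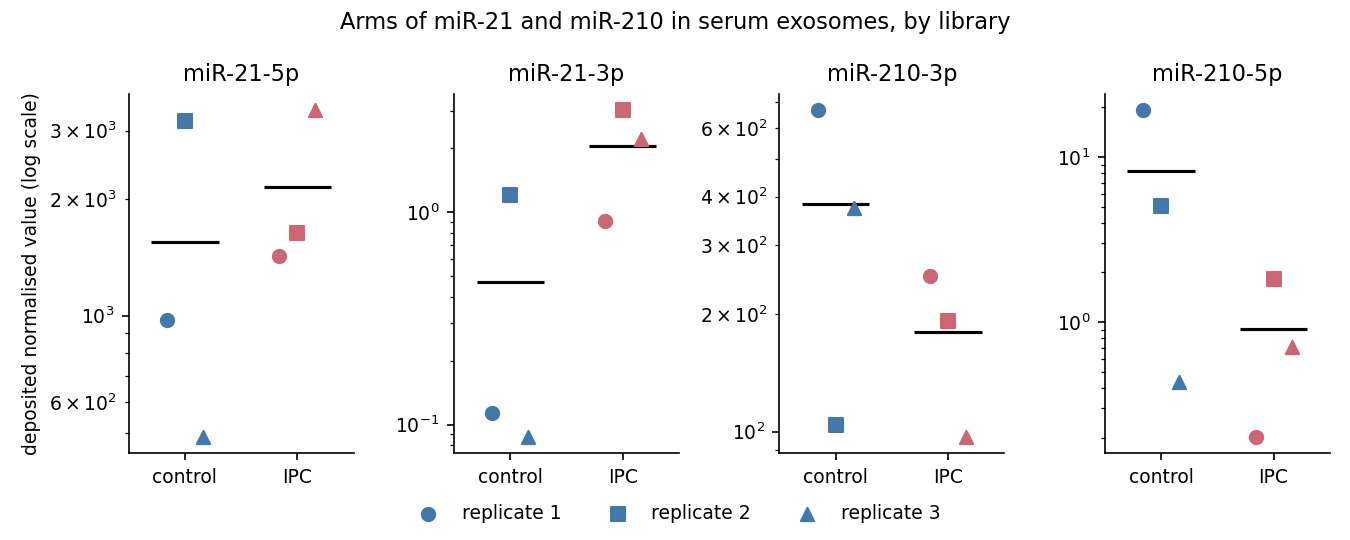
Deposited normalised value (log scale) of each arm in the 3 control (blue) and 3 IPC (red) libraries, with the marker shape giving the replicate number and the bar the group mean; libraries with 0 counts have small values above 0 from the authors' adjustment. Control replicate 2 is high for miR-21-5p (3172) and low for miR-210-3p (104), as is IPC replicate 3 (3394 and 97.0).

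**Figure D2:**
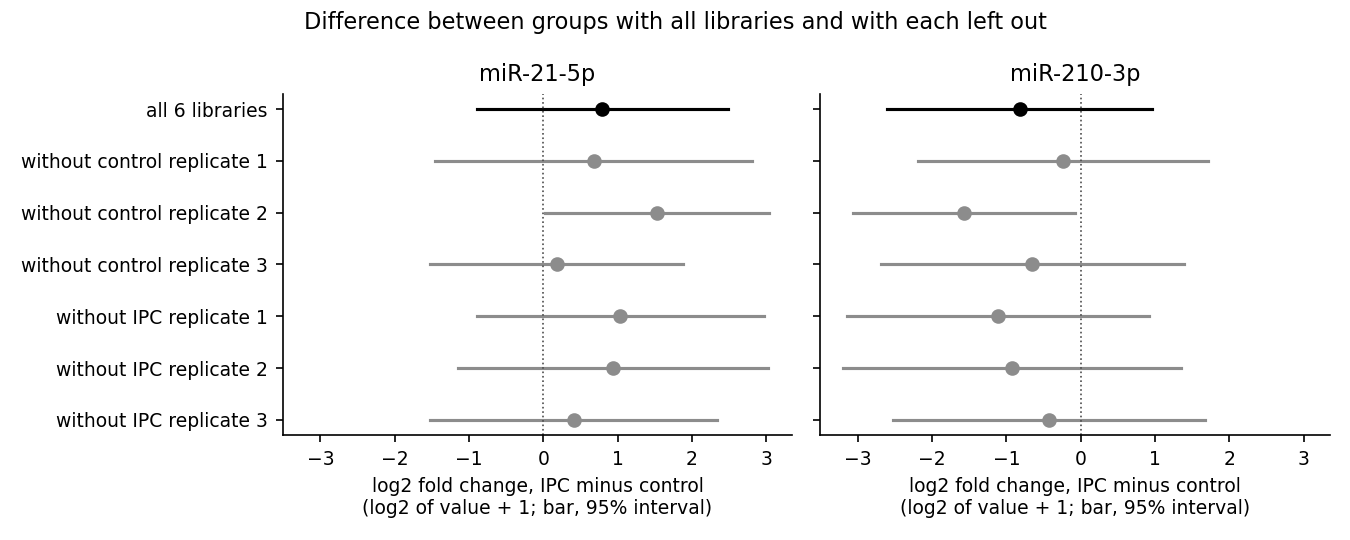
Log2 fold change of IPC against control for miR-21-5p and miR-210-3p with its 95% limma interval, for all 6 libraries (black) and with each library left out (grey). The value for miR-21-5p runs from 0.18 to 1.53 and that for miR-210-3p from -1.57 to -0.24.

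The arms that are mostly degraded were near the limit of detection. miR-21-3p had 0, 1 and 0 counts in control replicates 1, 2 and 3 and 3, 7 and 3 in the corresponding IPC replicates. Each IPC library had more counts than any control, but the IPC libraries were also deeper. By CPM the groups overlapped, with control replicate 2 at 6.56, from 1 count, and IPC replicate 1 at 3.93. The 0 in control replicates 1 and 3 allows up to 27.0 and 23.1 CPM (3 counts of the total). Both lie above the 3.93 to 10.6 CPM found after IPC, so a difference was not detectable at this depth. Summed and scaled by effective library size, the 13 IPC counts against 1 control count gave a ratio of 3.19 (exact 95% interval 0.479 to 135, counting error only). The mean share was 2.19 ± 3.79 CPM in controls and 7.97 ± 3.55 after IPC (exact permutation test, two-sided, p = 0.2, n = 3 each).

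miR-210-5p had 7, 4 and 0 counts in control replicates 1, 2 and 3 and 1, 4 and 1 in IPC replicates 1, 2 and 3, although the IPC libraries were deeper. Summed and scaled, the 6 IPC counts against 11 control counts gave a ratio of 0.134 (exact 95% interval 0.0406 to 0.394, counting error only). Control replicates 1 and 2, at 63.0 and 26.3 CPM, lay above the IPC libraries at 1.31 to 6.05 CPM. The exact Poisson 95% interval of control replicate 2 (7.15 to 67.2 CPM) overlapped those of the IPC libraries, which reached 7.30, 15.5 and 17.5 CPM in replicates 1, 2 and 3. That of control replicate 1 (25.3 to 130 CPM) did not. Control replicate 3, with 0 counts, allows up to 23.1 CPM, so whether the groups overlapped was not resolved at this depth. The mean share was 29.8 ± 31.7 CPM in controls and 3.50 ± 2.39 after IPC (exact permutation test, two-sided, p = 0.4, n = 3 each). In the authors' deposited table miR-210-5p has a log2 fold change of -3.03 and an unadjusted p of 0.0307, the only member below 0.05 there. Of the 763 rows of that table, 40 (5.24%) have an unadjusted p below 0.05. This share includes rows at 0 in every library, since only 480 rows had a count. The authors' deposited table gives log2 fold changes of 0.48 for miR-21-5p (unadjusted p = 0.559), 1.65 for miR-21-3p (p = 0.419) and -1.08 for miR-210-3p (p = 0.187). Fitted without the abundance filter, over 480 miRNAs, limma gave miR-210-5p a log2 fold change of -1.64 (SE 0.94, unadjusted p = 0.0826, adjusted p = 0.524) and miR-21-3p one of 1.07 (SE 0.77, adjusted p = 0.578).

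The arm shares put these counts beside those of the kept arm, within a library and so free of scaling. For miR-21, the 3p arm made up 0.106% of both arms over the IPC libraries (13 of 12305, exact Clopper-Pearson 95% interval 0.0563% to 0.181%) and 0.0323% over the controls (1 of 3096, 0.00082% to 0.180%). These intervals overlapped. For miR-210, the 5p arm made up 0.473% over the IPC libraries (6 of 1269, 0.174% to 1.03%) and 2.30% over the controls (11 of 478, 1.15% to 4.08%). The intervals of the summed shares of miR-210 did not overlap, which concerns counting error only. The 5p share was 3.10%, 4.55% and 0% in control replicates 1, 2 and 3, and 0.148%, 0.864% and 0.758% in IPC replicates 1, 2 and 3. The 0 of 164 counts in control replicate 3 allows a share of up to 1.83%, so that library may lie on either side of the IPC libraries. The other controls lay above all of them, but on few counts. Their exact 95% intervals were 1.25% to 6.28% and 1.25% to 11.2%. These overlapped the intervals of IPC replicates 2 (0.236% to 2.20%) and 3 (0.0192% to 4.15%), but not that of IPC replicate 1 (0.00376% to 0.824%).

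Set against each other, the kept arms gave a ratio of miR-21-5p to miR-210-3p counts that differed more between libraries than between groups. There were 1.46, 30.5 and 1.30 counts of miR-21-5p per count of miR-210-3p in control replicates 1, 2 and 3. In IPC replicates 1, 2 and 3 there were 5.67, 8.49 and 35.0. Control replicate 2 and IPC replicate 3 stood apart from the other libraries at the high end, and control replicates 1 and 3 at the low end. On the log2 scale the mean ratio was 1.95 ± 2.58 in controls and 3.57 ± 1.38 after IPC (SD, n = 3 each). As a description over the 6 libraries, the log2 levels of the 2 arms had a Pearson correlation of -0.85, which placed miR-210-3p 200th of the 225 others tested in likeness to miR-21-5p. Both arms varied within groups somewhat more than most miRNAs. Their within-group SD of log2(value + 1) was 1.08 for miR-21-5p and 1.09 for miR-210-3p, against a median of 0.92 over the 226, and ranked 83rd and 81st from the widest. In controls alone it was 1.37 for each.

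The miRNAs most like each arm over the 6 libraries were picked by Pearson correlation of log2(value + 1). For miR-21-5p these were miR-7a-5p (r = 0.99), let-7d-5p (0.98), miR-30e-5p (0.96), miR-450b-5p (0.96) and miR-16-5p (0.95). Like miR-21-5p, all 5 were higher in control replicate 2 than in either other control, which follows from choosing them by likeness. miR-7a-5p, the nearest, was at 160, 835 and 94.4 normalised counts in control replicates 1, 2 and 3 and at 257, 325 and 765 in IPC replicates 1, 2 and 3. For miR-210-3p the nearest were miR-106b-3p (r = 0.97), miR-425-5p (0.97), miR-326-3p (0.96), miR-484 (0.96) and miR-28-3p (0.95). miR-106b-3p was at 366, 91.7 and 269 in controls and at 140, 113 and 56.2 after IPC, the same order as miR-210-3p. None of these 10 passed the adjusted threshold in limma. These correlations share the same 6 libraries and were not tested.

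**Figure D3:**
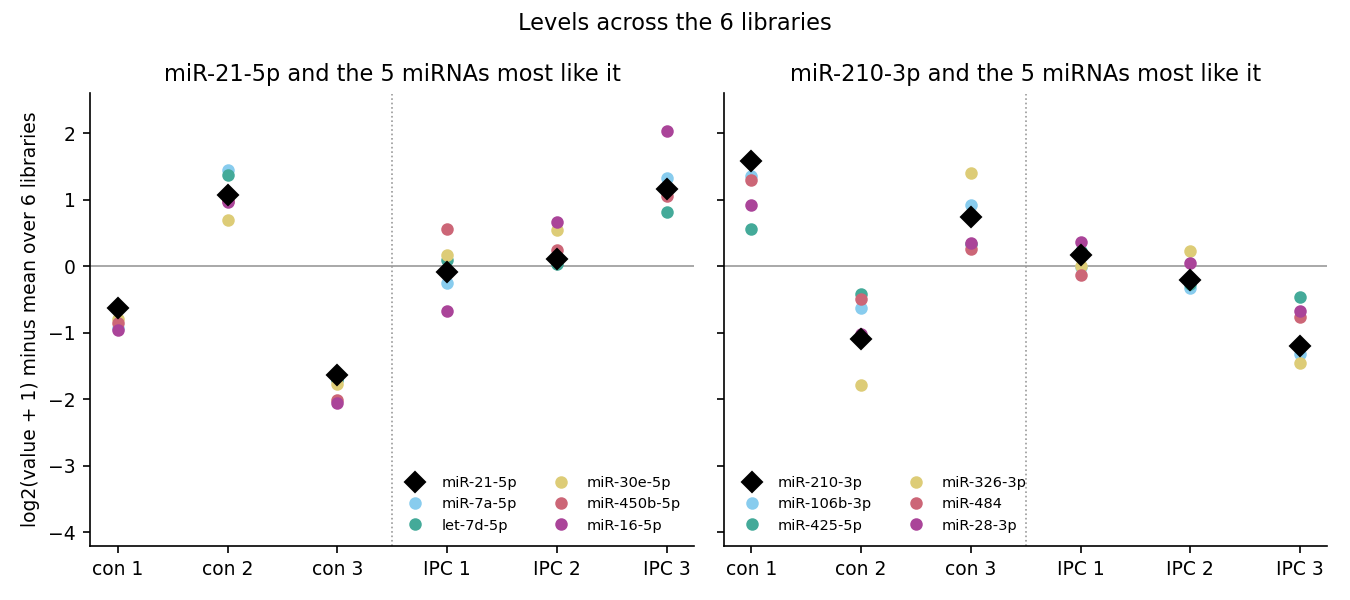
Log2(value + 1) minus its mean over the 6 libraries, for miR-21-5p (left) and miR-210-3p (right, black diamonds) and the 5 miRNAs most like each (coloured circles). The left set is high in control replicate 2 (con 2) and IPC replicate 3, and the right set is low in the same libraries. Both sets were chosen by likeness over these libraries.

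The base composition of the 2 arms, noted above, was set beside the other tested miRNAs after their values had been seen. Of the 226 tested miRNAs, 206 had a RefSeq sequence. Of these, 19 had a lower share of G and C bases than miR-21-5p, and 12 had a higher share than miR-210-3p. Across the 206 miRNAs, which are not independent, the log2 fold change was lower at a higher share of G and C bases (Spearman -0.55, and from -0.44 without control replicate 1 to -0.59 without IPC replicate 1). The median log2 fold change was 1.26 over the 40 miRNAs with under 40% G and C, 0.66 over the 76 from 40% to under 50%, and 0.028 over the 65 from 50% to under 60%. It was -0.82 over the 25 miRNAs with 60% or more, of which 20 were negative. miR-21-5p, at 0.79, lay below the median of the lowest class that holds it. miR-210-3p, at -0.82, was itself the median miRNA of the highest class.

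Libraries of one group differed in this respect too. The Spearman correlation of the share of G and C bases with the level in a library, relative to the mean over libraries, was 0.50, -0.32 and 0.48 in control replicates 1, 2 and 3. It was 0.062, -0.37 and -0.61 in IPC replicates 1, 2 and 3. The libraries with the highest miR-21-5p and lowest miR-210-3p, control replicate 2 and IPC replicate 3, had negative values, and control replicates 1 and 3 had positive ones. IPC replicate 2 did not follow this order. Its value of -0.37 was below the -0.32 of control replicate 2. Yet its miR-21-5p was lower (1633 against 3172) and its miR-210-3p higher (192 against 104). The likest miRNAs of miR-21-5p had 33.3% to 45.5% G and C, and those of miR-210-3p 47.8% to 66.7%. The part of base composition in the differences of the members was not tested.

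**Figure D4:**
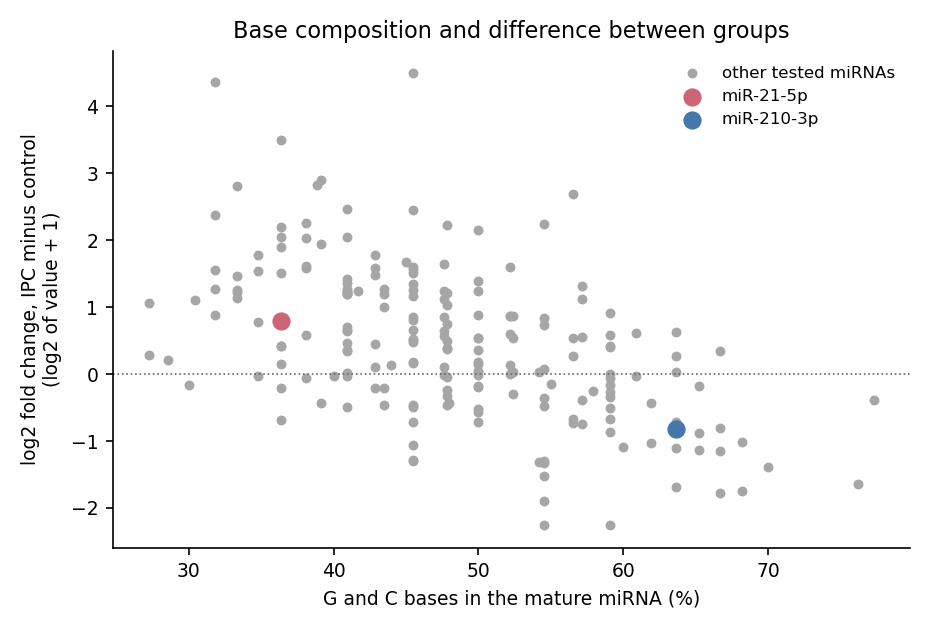
Log2 fold change of IPC against control for the 206 tested miRNAs with a RefSeq sequence, against the share of G and C bases in the mature miRNA. The points fall from left to right (Spearman -0.55), with miR-21-5p at 36.4% and 0.79 and miR-210-3p at 63.6% and -0.82.

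Other miRNAs known to respond to low oxygen were taken from a list of 14, of which all 14 had counts and 12 were tested. None passed the adjusted threshold, and 10 of 12 lay above 0 in log2 fold change, against 62.8% of all 226, and their median was 0.51 against 0.38 over all tested miRNAs. The median was 0.17 without control replicate 3 and 0.96 without control replicate 2, where 1 of the 12 passed, miR-26b-5p (2.37, limma adjusted p = 0.0411, and 1.47 with all libraries), against 16.8% of all tested. The most abundant, miR-24-3p, was at 12990, 16048 and 5536 in controls and at 21804, 16123 and 15178 after IPC, a log2 fold change of 0.74 (SE 0.60). miR-27a-3p, which shares the miR-23/27/24 clusters with it, had one of 0.54 (SE 0.62). miR-23a-3p was the only one of the 12 at an unadjusted p below 0.05, a level that 8.85% of all tested miRNAs reached in the higher direction, with a log2 fold change of 1.64 (SE 0.69; limma unadjusted p = 0.0352, adjusted p = 0.35), and it too was chosen by that value.

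Of 10 miRNAs studied in cardiac ischemia, 7 were tested. None passed the adjusted threshold. Of their log2 fold changes 3 were positive and 4 negative, against 62.8% positive over all 226, and the median of the 7 was -0.16. That median turned positive without control replicate 2 (0.78) and without IPC replicate 2 (0.36). Without the abundance filter, with all 10 members, it was 1.15, but the members added there were near the limit of detection. miR-34a-5p and miR-195-5p had 0 counts in every control, and miR-494-3p had 0, 5 and 0 in control replicates 1, 2 and 3. After IPC these members had 2 to 16 counts, in deeper libraries. miR-320-3p was at 51705, 11398 and 65153 in controls and at 15995, 9825 and 6329 after IPC, low in control replicate 2 like miR-210-3p. Its log2 fold change was -1.76 (SE 0.73, limma adjusted p = 0.35). Without control replicate 2 it passed at -2.54 (limma adjusted p = 0.0124), alone among the 7, where 16.8% of all tested miRNAs passed. miR-92a-3p had one of 1.13 (SE 0.70). miR-1-3p and miR-24-3p, which together with miR-21 are known from preconditioned mouse hearts, had log2 fold changes of 4.36 (SE 1.25) and 0.74 (limma adjusted p = 0.341 and 0.625). miR-1-3p passed in limma without control replicate 2 (5.94, adjusted p = 1.0e-04), with the replicate number as a block (adjusted p = 2.7e-05) and without the abundance filter (adjusted p = 0.00553). Of all miRNAs fitted, 16.8%, 0.885% and 0.625% passed in these 3 fits, in that order. The adjusted p of miR-1-3p was 0.13 to 0.857 in the other alternatives. The muscle miRNA miR-1-3p was at 86.9, 1966 and 62.4 in controls and at 1235, 12485 and 6188 after IPC. Like miR-21-5p, it was highest among controls in replicate 2.

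Markers of other sources were found in every library. The 8 heart and skeletal muscle miRNAs took 0.217% to 1.83% of counts in controls and 1.43% to 8.46% after IPC, with the highest control share in replicate 2. Of these, miR-208b-3p was at 0 in 2 libraries and miR-133a-5p in 1. The 6 leukocyte miRNAs took 0.738% to 2.21% and 1.80% to 2.99%, again with the highest control share in replicate 2. The 6 red-cell miRNAs took 4.12% to 7.80% and 4.94% to 5.84%, with the highest control share in replicate 3 and miR-144-5p at 0 in 1 library, and the 6 measured platelet miRNAs 4.64% to 11.4% and 10.0% to 13.2%. Most of the platelet share in every library came from miR-191a-5p and miR-24-3p, and miR-24-3p is also on the low-oxygen and preconditioning lists above. miR-223-3p is on both the platelet and the leukocyte list. The part of these sources in the levels of miR-21 and miR-210 was not tested.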

How the data were processed

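Exosomal small RNA (1 µg of total RNA per library) was read as single-end 50 bp reads, per the labels' protocols. FastQC, BWA, edgeR and rn6 are named in the submitters' processing notes. The sources used here do not say what each tool did or which miRNA release was counted. The authors deposited a normalised signal for each library together with a log2 fold change and a p-value that is not adjusted, per the file headers. The signal follows the form of counts moved by negative binomial quantile adjustment to a common size (dispersion 0.503), worked out from the values. Inverting it by group gave 4578 of 4578 values within 0.01 of a whole count. This total includes rows at 0 throughout a group, which were taken as 0 counts without inversion. Of the 763 rows, 480 had a count in any library.

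Since the deposited signal is not whole counts, groups were compared with limma 3.58.1 (R 4.3.3, trended, robust) on log2(value + 1), which understates the change of low miRNAs, with group as the only term and Benjamini-Hochberg adjustment. A miRNA was tested if it reached the equivalent of 10 counts at the median effective library size in 3 or more libraries and 15 counts in total. Members and lists were chosen with earlier results of these data known. Named miRNAs were the members, the 5 likest per tested member, and the 2 most abundant per list with any that passed. miR-23a-3p, miR-26b-5p, miR-206-3p, miR-18a-5p and miR-3574 were named after their values were seen, and base composition was examined after the values were seen. Alternatives were other scalings, pseudocounts, filters, limma-voom, a replicate block and leaving out each library. The steps were tested on simulated data. Intervals and floors cover counting error only. Python 3.11.15 with scipy 1.17.1 and numpy 2.4.6 was used, and figures were drawn with matplotlib 3.10.9.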

Additional observations from a re-analysis of the deposited data

How the results depend on the processing

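Neither miR-21-5p nor miR-210-3p passed an adjusted p of 0.05 in any fit run, and their directions held in all 16 alternatives. In the fit without control replicate 2, 16.8% of the 226 miRNAs passed. miR-21-3p and miR-210-5p were fitted only without the abundance filter, and did not pass there. With each library left out in turn, the log2 fold change ran from 0.18 to 1.53 for miR-21-5p and from -1.57 to -0.24 for miR-210-3p, and the scaled log2 count ratio from 1.20 to 2.07 for miR-21-3p and from -3.82 to -1.78 for miR-210-5p. Without control replicate 2, the only control with a count of miR-21-3p, no ratio can be given. The difference in share of counts ran from -1667 to 6155 CPM for miR-21-5p, from 4.48 to 7.97 for miR-21-3p, from -956 to -246 for miR-210-3p and from -41.1 to -9.63 for miR-210-5p. Other scalings gave 0.52 to 0.80 for miR-21-5p and -1.10 to -0.81 for miR-210-3p (log2 fold change). With the replicate number as a block these were unchanged at 0.79 and -0.82, with adjusted p = 0.792 and 0.813 in limma, and 2 of 226 miRNAs, miR-1-3p and miR-206-3p, were called. Deviations of same-numbered libraries from their group means had correlations of 0.13, -0.18 and -0.51 for numbers 1, 2 and 3. With means taken over 3 libraries, these values cannot show whether same-numbered libraries share a block, and the labels name none. Without the abundance filter 3 of 480 miRNAs were called (the same pair and miR-18a-5p), against 0 of 226, and limma-voom called 0. For miR-21-3p and miR-210-5p, the model and pseudocount alternatives were not run, since they were not tested. Depth limits both, with 14 and 17 counts in all.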
